A study of Mus musculus with 6 samples.

Results

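The genes described here are 35 astrocyte genes, looked up by symbol among the 24419 genes of the deposited table, and all 35 were found. They fall into 18 homeostatic genes that mark resting astrocytes, 12 reactive genes known to rise when astrocytes respond to injury, and 5 secreted or shared genes that astrocytes express strongly along with other cells. Male mice had the middle cerebral artery blocked for 60 min and then reopened, and on day 4 the peri-infarct cortex was cut out and treated with pronase for 75 minutes. The mice of the 3 libraries labelled control were Padi4 flox/flox, and those of the 3 labelled cKO (conditional knockout) carried Slc17a7-cre and Slc32a1-cre on top of Padi4 flox/flox, which direct Cre to excitatory and inhibitory neurons. All 6 libraries thus share the loxP-flanked Padi4 alleles and the occlusion. Age and pooling of the mice were not given in the sources used here.

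Cells were sorted as Thy1-positive and negative for ACSA2, CD31, CD45 and O4. ACSA2 is an astrocyte surface antigen encoded by Atp1b2, so the gate was set to leave astrocytes out, and the libraries are labelled as neurons. Astrocytes take up glutamate and potassium released by neurons, move water at their endfeet on blood vessels, convert glutamate to glutamine and supply lipids. After ischaemia those near the lesion enlarge, build intermediate filaments and secrete acute-phase proteins, and the border they form with fibroblast-lineage and vascular cells surrounds the infarct core. Several reactive genes are not specific to astrocytes, since vimentin, nestin, Tm4sf1, Emp1 and S1pr3 are also expressed in vascular or fibroblast-lineage cells.

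The libraries held 10094145 to 24056755 reads, recovered from the values, and 14042 to 17891 genes with at least 1 read. The libraries with the fewest detected genes were the control and cKO libraries numbered 2, at 15261 and 14042, against 16818 or more in the other 4. Padi4, the targeted gene, had 0 reads in each library labelled control and 0, 3 and 12 reads in the libraries labelled cKO numbered 1 to 3. No loss of Padi4 RNA under the cKO label was seen, but reads this few cannot check the labels. Every direction given below is that of the labels. Oligodendrocyte markers summed to between 12728 and 37368 over 18 genes, pan-neuronal markers to 1603 to 7935 over 15 genes, oligodendrocyte precursor markers to 2476 to 4257 over 12, microglia and macrophage markers to 53.0 to 113 over 15 and ependymal markers to 10.2 to 36.0 over 11. These and all later levels are the deposited CPM-like values, which carry a further scaling per library (scaled CPM). Lists of 6 values give the libraries labelled control 1 to 3 and then cKO 1 to 3.

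Most of these genes were read in every library although the gate was set against astrocytes. Of the 35 genes, 30 had more than 3 reads, the detection floor used here, in all 6 libraries, made up of 17 of the 18 homeostatic, 8 of the 12 reactive and all 5 shared genes. Atp1b2 itself was measured at 209, 133, 244, 242, 412 and 273 scaled CPM, so RNA for the antigen gene was not low in any library. Atp1b2 is also transcribed in neurons, and RNA level does not show surface antigen. In sorted bulk RNA, fewer cells of a type and less RNA per cell cannot be told apart.

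Divided by the length of each gene's exons, the mean level over the 6 libraries was highest for Serpina3n, at 407 scaled CPM per kb, and for Glul, at 327. Vim followed at 107 per kb, Cst3 at 86.2, Apoe at 78.1, Hepacam at 58.1 and Slc1a2 at 53.2. Serpina3n, a secreted protease inhibitor, and Glul, glutamine synthetase, are also known from oligodendrocytes. Several genes more restricted to astrocytes were lower. Gfap was at 23.5 per kb, Slc1a3 at 7.82, Ntsr2 at 6.86, Aqp4 at 4.33 and Aldh1l1 at 2.53. Homeostatic genes were not uniformly low, since Glul, Hepacam and Slc1a2 above belong to that class and S100b was at 32.1 per kb. Atp1b2, outside the members, was at 61.7. Cd14 was last at 0.386 per kb. For comparison the neuronal genes Snap25 and Thy1 were at 196 and 56.3 per kb.

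**Figure D1:**
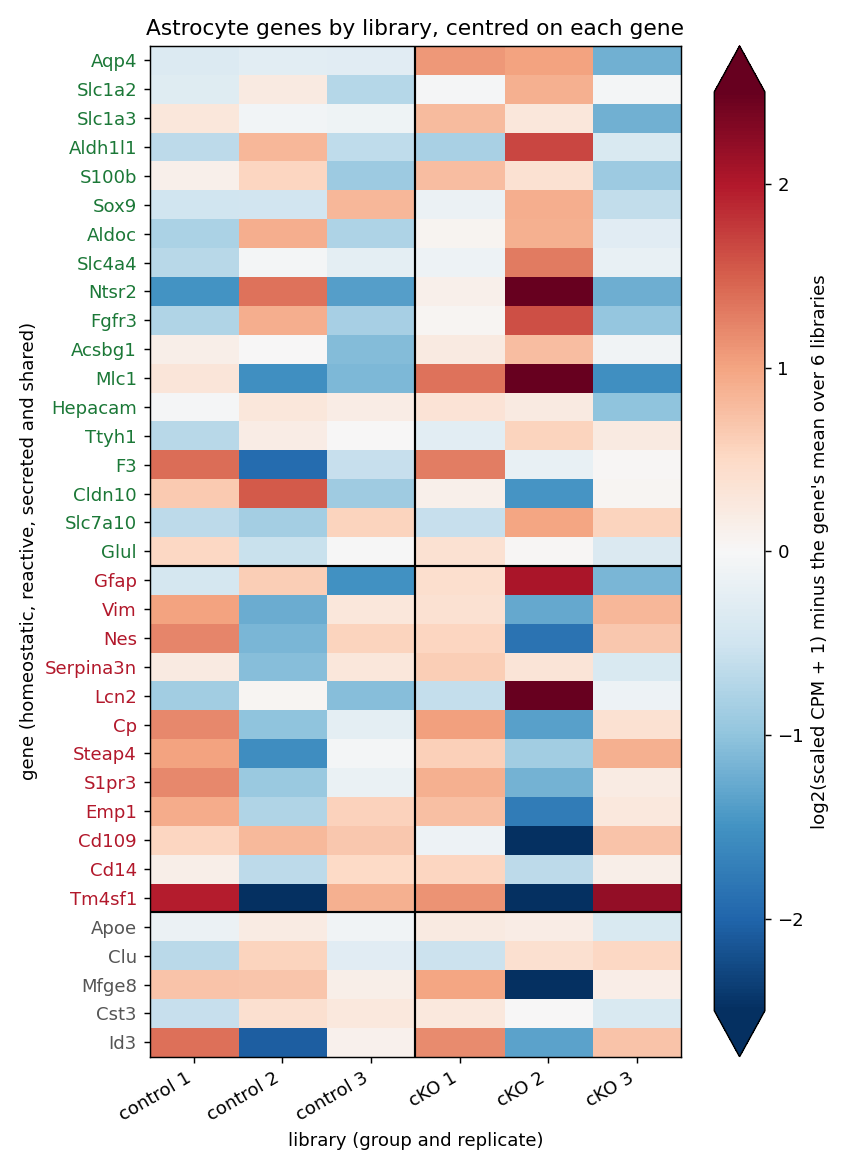
Level of the 35 genes (rows) in the 6 libraries (columns), as log2(scaled CPM + 1) minus each gene's mean over the libraries, with homeostatic names in green, reactive in red and secreted or shared in grey. Most homeostatic rows are highest in cKO 2, and 8 of the 12 reactive rows have their 2 lowest values in control 2 and cKO 2.

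Among the glutamate transporters, Slc1a2, which encodes GLT-1, the main glutamate transporter of forebrain astrocytes, was at 531, 768, 402, 640.4, 1214 and 636 scaled CPM. Its highest value was in cKO 2 and its second highest in control 2, and the groups overlapped. The gene lies at chr2:102658659-102790784 on the plus strand of mm10, with an antisense gene annotated over it. Opposite-strand genes also overlap Gfap, Aqp4, Aldh1l1, Cd109, Cldn10, Fgfr3, Glul, S100b, S1pr3, Slc7a10 and Ttyh1, so their values may include reads of those partners. Slc1a3, which encodes GLAST, was at 75.0, 58.4, 57.4, 108, 75.6 and 26.3. It did not follow Slc1a2, having its highest value in cKO 1 and its lowest in cKO 3.

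The water channel gene Aqp4, which marks perivascular endfeet, was at 18.0, 19.0, 18.8, 49.6, 47.1 and 9.51. The control libraries lay within a narrow band, while those labelled cKO fell on both sides of it. Mlc1, which encodes an endfoot membrane protein mutated in a leukodystrophy with cysts, was at 4.61, 0.588, 1.11, 10.7, 25.4 and 0.589. Its values spread over a 43.1-fold range, and cKO 3 was as low as control 2. The Mlc1 values rest on 50, 8, 20, 222, 251 and 14 reads, so the fold range depends on a low count. Hepacam, the adhesion partner of Mlc1, varied little by comparison, at 92.2 in cKO 3 and between 182 and 237 in the other 5 libraries.

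Slc4a4, which encodes a sodium bicarbonate cotransporter, was at 29.96, 46.9, 40.9, 44.4, 122 and 42.9. A single library, cKO 2, stood above the rest, and the other 5 lay within 29.96 to 46.9. Slc7a10, the transporter of glycine, serine and alanine known as Asc-1, ranged from 1.62 to 8.38, with cKO 2 again the highest. Ttyh1, which encodes a chloride channel-like protein also found in neurons and progenitors, ranged from 63.3 to 153.

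Of the metabolic genes, Aldh1l1, the folate enzyme used as a general astrocyte marker, was at 5.25, 16.5, 5.33, 4.61, 30.4 and 6.57. Its 4 libraries outside those numbered 2 lay between 4.61 and 6.57. Aldoc, the brain aldolase, had the same pair of highest libraries, at 26.3, 88.3, 26.7, 48.7, 86.4 and 37.8. Acsbg1, which activates long-chain fatty acids, was at 16.04, 14.4, 6.28, 16.9, 25.2 and 13.5, with control 3 lowest. Glul, which makes glutamine from glutamate, ran the other way in part, from 714 in control 2 to 1508 in control 1.

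Among receptor and regulator genes the spread was uneven. Ntsr2, a neurotensin receptor gene restricted to astrocytes, ran from 3.41 to 12.6 in the 4 libraries not numbered 2 and stood at 30.5 in control 2 and 73.8 in cKO 2. Fgfr3, a fibroblast growth factor receptor gene, ranged from 7.20 to 15.5 in the same 4 libraries and was at 29.1 and 47.9 in control 2 and cKO 2. Sox9, the transcription factor that sets glial fate, was at 9.59, 9.64, 25.3, 12.4, 27.1 and 8.67, so that control 3 joined cKO 2 at the top. S100b, a calcium-binding protein gene that maturing oligodendrocytes also express, was at 47.4, 63.0, 22.4, 74.0, 56.4 and 22.5, lowest in both libraries numbered 3. F3, which encodes tissue factor and starts clotting, was highest in control 1 and cKO 1, at 124 and 114, and lowest in control 2, at 11.5. Cldn10, a claudin gene, had 0 reads in cKO 2, below that library's floor of 0.303, and at most 7.06 elsewhere.

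**Figure D2:**
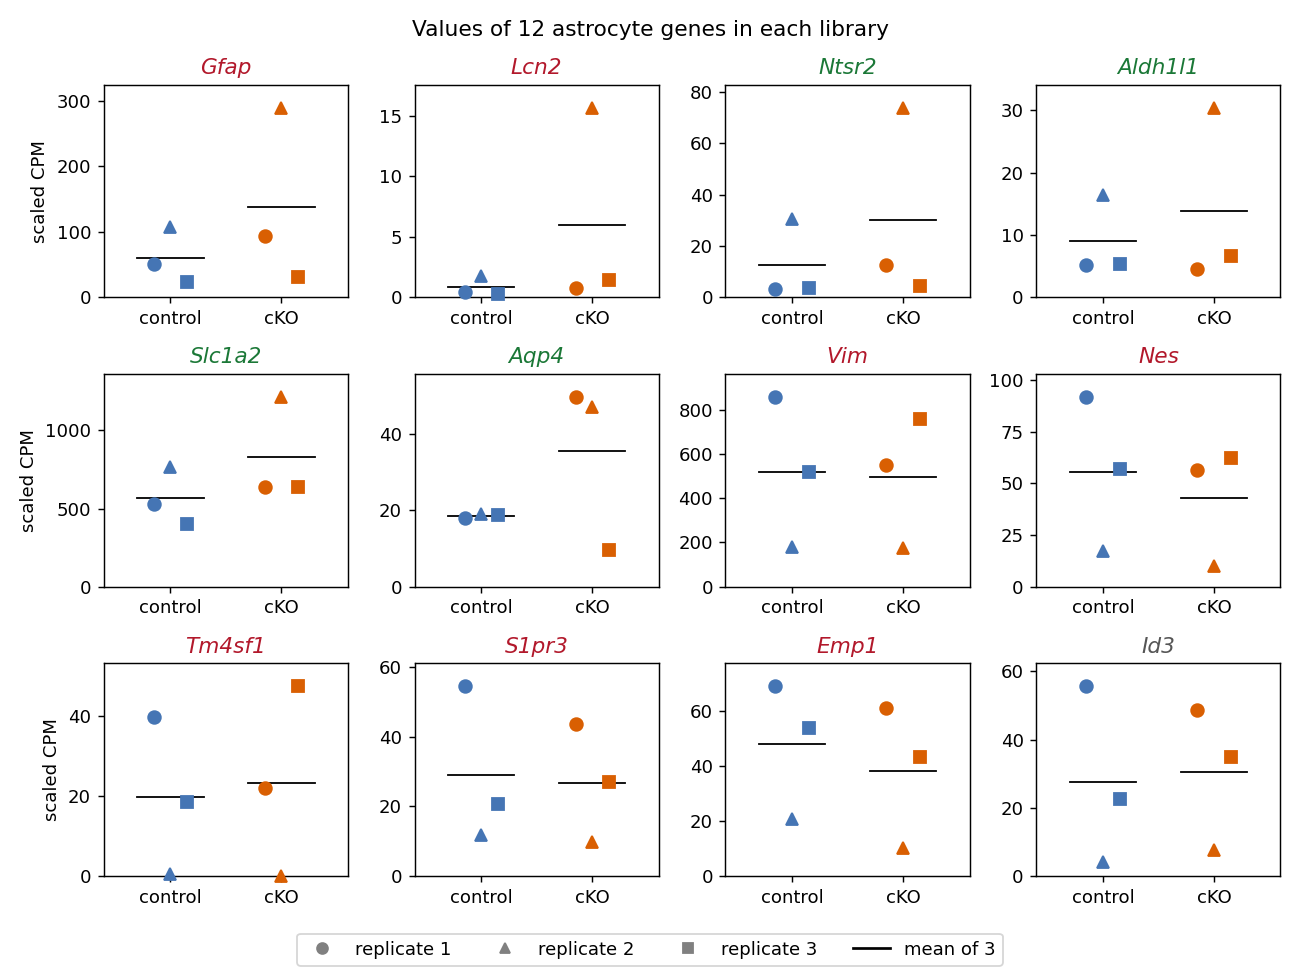
Scaled CPM of 12 of the genes in each library (points, shaped by replicate number), with the mean of each group as a line, on linear axes from 0. Gfap, Lcn2, Ntsr2, Aldh1l1 and Slc1a2 have both triangles (replicate 2) on top within their groups, while Vim, Nes, Tm4sf1, S1pr3, Emp1 and Id3 have them at the bottom.

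The reactive class divided within itself, first of all among its 3 intermediate filament genes. Gfap, the filament gene that rises most characteristically in reactive astrocytes, was at 51.1, 107, 23.8, 93.1, 289.8 and 30.8. The 2 libraries numbered 2 were the highest, and cKO 2 was 12.2-fold above control 3. Vim, which encodes vimentin, was at 857, 180.2, 517, 549.8, 175 and 759, with the same 2 libraries lowest. Nes, which encodes nestin, repeated the order of Vim at the low end, at 91.8, 17.1, 57.1, 56.5, 10.1 and 62.5.

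Because Gfap and Vim assemble into the same filaments but took opposite orders here, the RefSeq windows around their annotated starts are shown, with that of Ntsr2, whose highest libraries were also cKO 2 and control 2. Each runs from 250 bases before to 30 bases after the start in GRCm38.p6, at chr11:102897171-102897450 on the minus strand for Gfap, chr12:16653220-16653499 on the plus strand for Ntsr2 and chr2:13574061-13574340 on the plus strand for Vim. Capitals mark matches to TTCNNNGAA, the letters bound by STAT factors such as STAT3, a regulator of astrocyte reactivity.
Gfap: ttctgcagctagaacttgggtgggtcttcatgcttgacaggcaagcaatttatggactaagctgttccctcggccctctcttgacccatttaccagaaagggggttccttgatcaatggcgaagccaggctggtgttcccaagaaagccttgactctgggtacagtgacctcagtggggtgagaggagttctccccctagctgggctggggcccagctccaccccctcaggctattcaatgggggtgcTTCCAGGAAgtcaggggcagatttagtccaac
Ntsr2: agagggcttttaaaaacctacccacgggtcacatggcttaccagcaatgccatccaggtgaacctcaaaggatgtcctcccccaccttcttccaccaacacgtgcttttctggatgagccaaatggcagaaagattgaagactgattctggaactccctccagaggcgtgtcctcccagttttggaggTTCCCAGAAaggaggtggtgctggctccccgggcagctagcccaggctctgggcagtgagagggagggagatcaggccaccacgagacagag
Vim: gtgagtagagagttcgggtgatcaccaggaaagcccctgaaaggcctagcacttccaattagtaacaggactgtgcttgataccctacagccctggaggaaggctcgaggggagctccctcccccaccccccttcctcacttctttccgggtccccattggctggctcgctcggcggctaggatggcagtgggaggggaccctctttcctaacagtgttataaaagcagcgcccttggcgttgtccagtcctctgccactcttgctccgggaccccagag
Gfap held 1 match, TTCCAGGAA, whose first base is at -2 from the annotated start, and Ntsr2 held 1, TTCCCAGAA, at -62, while these letters are not in the Vim window. Of 30 members with a window, 7 held a match, namely Slc1a3, Aldoc, Ntsr2, Acsbg1, Gfap, Steap4 and Emp1, beside 9.04% of all 27025 symbols in the RefSeq table. The AP-1 letters TGANTCA were in 3 of the 30, F3, Cp and Emp1, beside 8.60% of all symbols. Both motifs read the same on either strand, so 1 search covers both strands. Of the members with STAT letters, Gfap, Aldoc and Ntsr2 had their 2 highest values in control 2 and cKO 2, and Steap4 and Emp1 their 2 lowest. Slc1a3 and Acsbg1 had neither. Slc1a2, Aldh1l1, Slc4a4, Fgfr3 and Lcn2 also had their 2 highest values in control 2 and cKO 2, but are not among the matches. Vim, Nes, Cp, S1pr3, Cd14, Tm4sf1 and Id3, with their 2 lowest values there, are not among them either. Members without a window could not be searched. Whether the letters bear on these orders was not tested. A match describes the letters alone.

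The secreted acute-phase genes also went separate ways. Serpina3n was abundant in all 6 libraries, at 915, 376, 956, 1209, 981 and 604, with control 2 lowest. It has close paralogs, so the split of reads among them is uncertain. Lcn2, which encodes the iron-siderophore carrier lipocalin 2 and is among the most inducible astrocyte genes after stroke, was at 0.461, 1.77, 0.278, 0.768, 15.7 and 1.47. These values rest on 5, 24, 5, 16, 155 and 35 reads, so cKO 2 alone carried most of its signal. Cp, the ferroxidase ceruloplasmin, was highest in control 1 and cKO 1, at 157 and 140.0, and lowest in control 2 and cKO 2, at 33.4 and 26.0. Cp overlaps the gene Hps3 on the other strand, and without a stated strand setting their reads cannot be told apart.

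The membrane genes of the reactive class were mostly low in the libraries numbered 2. Tm4sf1, a tetraspanin-like gene strong in endothelium, was at 39.8, 0.515, 18.6, 22.0, 0 and 47.4, with 0 reads in cKO 2. S1pr3, a receptor for sphingosine 1-phosphate, was at 54.6, 11.8, 20.7, 43.8, 9.70 and 26.9. Emp1, an epithelial membrane protein gene, was at 69.0, 20.8, 53.8, 61.0, 9.9998 and 43.3. For all 3, control 2 and cKO 2 were the 2 lowest libraries. Steap4, a metalloreductase gene, had 0 reads in control 2 and 6 in cKO 2 against 33 to 105 elsewhere.

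Cd109, a protease inhibitor-like surface protein that binds TGF-beta, was at 7.56, 9.34, 8.45, 4.41, 0 and 8.67. It was absent from the reads of cKO 2 only, while control 2 was its highest library. Cd14, the lipopolysaccharide co-receptor best known from macrophages, had at most 27 reads in any library and 0 in control 2 and cKO 2. It was the one member below the low-value filter of at least 1 scaled CPM in at least 3 libraries and was not tested. The other 34 members passed, and 0 of them passed through the libraries of a single group alone.

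Of the secreted and shared genes, 3 varied little and 2 varied widely. Apoe, the lipoprotein that carries cholesterol between brain cells, was at 149, 189.6, 156, 193, 188 and 127, a 1.52-fold range. Cst3, which encodes the protease inhibitor cystatin C, was at 70.6, 141, 127, 128, 107 and 81.2, and Clu, the chaperone clusterin, at 50.5, 120.3, 66.6, 55.6, 108 and 116. Neither showed a library far from the others. Mfge8 and Id3 spread over 16.5-fold and 13.3-fold ranges. Mfge8, a bridging protein for phagocytosis, was at 46.9, 45.7, 31.2, 56.6, 3.43 and 31.6, with cKO 2 alone low. Id3, a transcriptional inhibitor strong in vascular cells, was at 55.7, 4.19, 22.6, 48.6, 7.68 and 34.9, in the manner of Vim.

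Counted over the class lists, the 2 libraries numbered 2 were both above the other 4 for 6 of 18 homeostatic genes (Slc1a2, Aldh1l1, Aldoc, Slc4a4, Ntsr2 and Fgfr3) and for 2 of 12 reactive genes (Gfap and Lcn2). Over all 14796 tested genes this held for 11.7%. They were both below the other 4 for 8 of 12 reactive genes (Vim, Nes, Cp, Steap4, S1pr3, Emp1, Cd14 and Tm4sf1), 0 of 18 homeostatic genes and, of the shared genes, Id3. Over all tested genes this held for 18.8%. The order was noticed in these values and has no test, and nothing in the labels says that libraries sharing a number share anything else.

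The mean log2 level of the homeostatic class minus that of the reactive class was -0.41, 1.31 and -0.05 in control 1 to 3 and 0.20, 2.11 and -0.44 in cKO 1 to 3. Each group thus held 1 library with a large positive balance and 2 near or below 0.20, and the groups overlapped. Summed scaled CPM gave a different picture, since a few abundant genes dominate it. The homeostatic sum ran from 1901 in cKO 3 to 3327 in cKO 2, and the reactive sum from 758 in control 2 to 2249 in control 1, with cKO 2 at 1518, of which Serpina3n made up 981 and Gfap 289.8.

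Some marker lists of other cells moved with these orders, and others did not. Pericyte, smooth muscle and fibroblast markers summed over 16 genes to 523 and 289 in control 2 and cKO 2, to 784 in control 3, and to 5257, 3253 and 2867 in control 1, cKO 1 and cKO 3. By group that was 523 to 5257 in the libraries labelled control and 289 to 3253 in those labelled cKO. In cKO 2, 2 of the 16, Cnn1 and Lum, had 0 reads. Endothelial markers summed over 14 genes to 126 to 246 in the libraries labelled control and 183 to 279 in those labelled cKO, lowest in control 2 and cKO 2, where Cldn5 had 0 reads in both. In control 3, where the sum over those 16 genes was 784, Vim was at 517 and Nes at 57.1. Not all of the 16 were low there. Col1a1 was at 48.9 against 1205 in control 1, and 2 of the 16, Kcnj8 and Abcc9, were lowest in control 3. Rgs5 and Myh11, at 116 and 110 in control 3, were above their values of 81.7 and 51.8 in cKO 3. So were Cnn1, at 3.44 against 2.36, and Notch3, at 65.6 against 63.1. All the rest of the 16 were lower in control 3 than in cKO 3, where Col1a1 was at 641. Oligodendrocyte markers summed to 30682, 24345, 24774, 37368, 23444 and 12728, and pan-neuronal markers to 2939, 4314, 3057, 1603, 4478 and 7935. Neither list had any gene that was lowest in both libraries numbered 2. Oligodendrocyte markers in sum were highest in cKO 1 and lowest in cKO 3, as were Aqp4, Slc1a3 and Hepacam, while neuronal markers were lowest in cKO 1 and highest in cKO 3. The part of these cells, and of the lower gene detection in the libraries numbered 2, in the orders of the astrocyte genes was not tested.

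**Figure D3:**
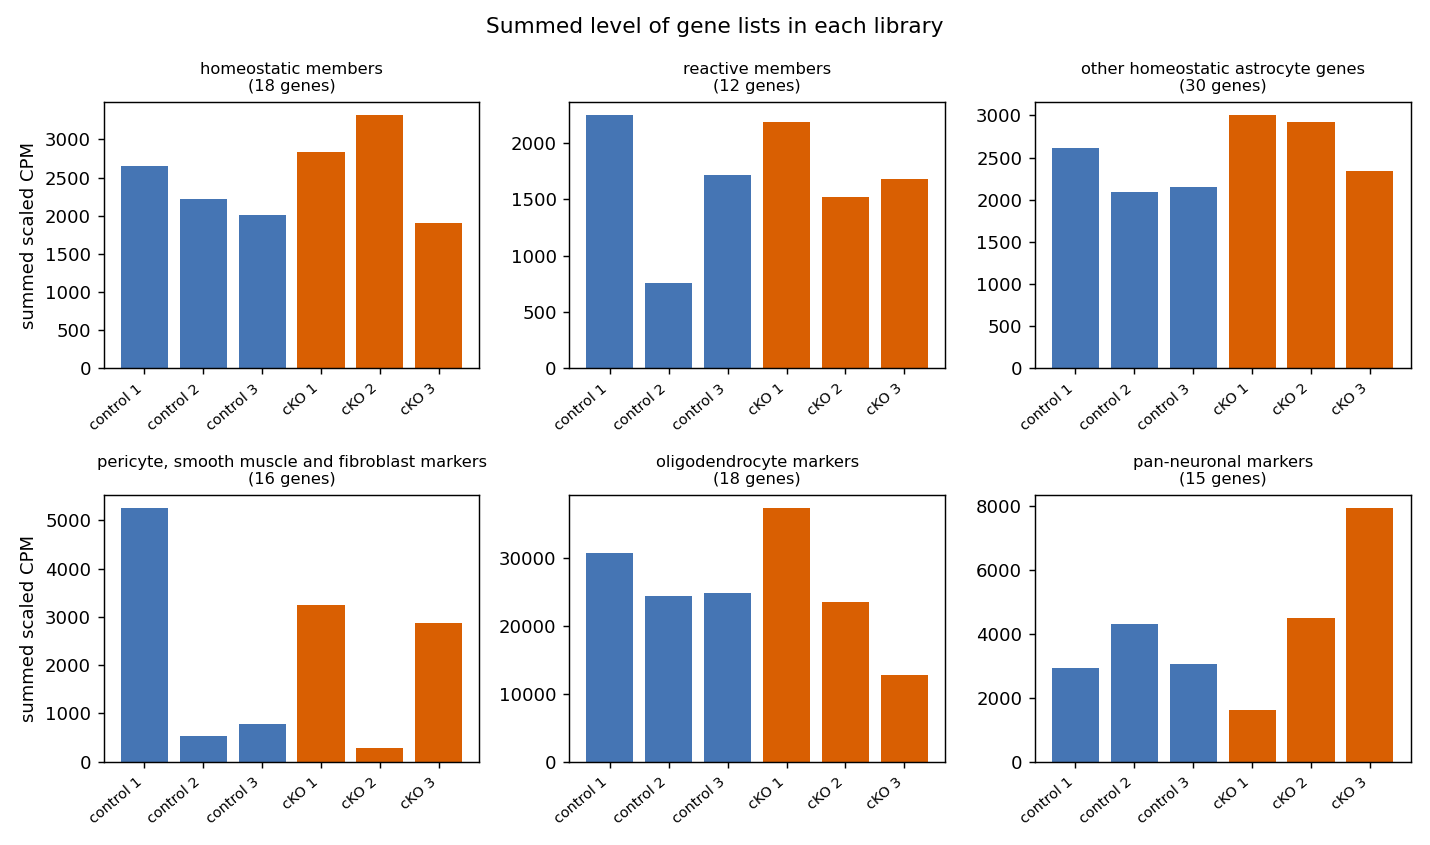
Summed scaled CPM of 6 gene lists in each library (bars, linear axes from 0, blue for control and orange for cKO, each panel on its own scale). Reactive members and pericyte, smooth muscle and fibroblast markers are both high in control 1 and cKO 1, while the homeostatic sum is highest in cKO 2. The reactive sum is 1717, 1518 and 1678 in control 3, cKO 2 and cKO 3. The pericyte, smooth muscle and fibroblast sum is 784, 289 and 2867 there.

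The comparison of the groups asked which of these astrocyte genes differ in neuron-enriched peri-infarct cells when Padi4 is targeted in neurons. None of the 34 tested members changed past the threshold in limma (adjusted p under 0.05 over all 14796 genes), the smallest adjusted p among them being 0.9996. The background of called genes was 0%, or 0 of 14796. In limma 0 of the 34 had an unadjusted p under 0.05, where 0.338% of all genes did so as higher and 0.514% as lower in the libraries labelled cKO. The groups overlapped for all 35 members, while every library labelled cKO lay above every library labelled control for 2.45% of tested genes and below for 2.26%. DESeq2 on recovered reads gave 2 members, Mlc1 and Lcn2, an unadjusted p under 0.05 and edgeR 0, and both called 0 members after adjustment, beside 0 of 14796 genes in edgeR and 0.00678% (1 of 14754) in DESeq2.

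By direction, 15 of 18 homeostatic genes had a higher mean log2 level under the cKO label, the median log2 difference being 0.44, beside 48.0% of all tested genes and a median of -0.02. Of 11 tested reactive genes 5 were higher, with a median of -0.04, and of the 5 shared genes 3, with a median of 0.02. These are counts of signs and not of calls. The homeostatic median was 0.06, with 11 of 18 higher, without cKO 2. The reactive median was 0.45 without cKO 2 and 0.58 without control 1, and -0.61 without control 2. The homeostatic median thus exceeded the reactive one by 0.48 with all libraries and lay below it, at -0.39 and -0.29, without cKO 2 or without control 1. Without both libraries numbered 2, 14 of 18 homeostatic and 5 of 10 reactive genes were higher, with medians of 0.28 and -0.01.

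Single differences came with wide errors. Mlc1 had means of 2.10 ± 2.19 and 12.2 ± 12.5 scaled CPM in the libraries labelled control and cKO (SD, n = 3 each), a log2 difference of 1.57 with a standard error (SE) of 1.02. Slc4a4 had means of 39.3 ± 8.60 and 69.8 ± 45.2, and a log2 difference of 0.66 (SE 0.45). Slc1a2 was at 567 ± 186 and 830.3 ± 332, with a difference of 0.53 (SE 0.40), and Aqp4 at 18.6 ± 0.531 and 35.4 ± 22.5, with a difference of 0.59 (SE 0.61). Among all 6 libraries cKO 2 was the highest for Mlc1, Slc4a4 and Slc1a2 and the second highest for Aqp4. Without it the differences were 0.69 for Mlc1, 0.17 for Slc4a4, 0.22 for Slc1a2 and 0.24 for Aqp4. Without cKO 3, Mlc1 was at 2.72 and Aqp4 at 1.33, without cKO 1 Aqp4 was at 0.20, and without control 3 Slc1a2 was at 0.31.

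Among reactive genes Gfap had means of 60.6 ± 42.4 and 138 ± 135 (SD, n = 3 each) and a log2 difference of 0.88 (SE 0.75), which was 0.08 without cKO 2, 0.35 without control 3, 1.41 without control 2 and 1.67 without cKO 3. Lcn2 was at 0.835 ± 0.811 and 5.97 ± 8.40, with a difference of 1.27 (SE 0.91). It reached 1 scaled CPM only in control 2, cKO 2 and cKO 3, so it fell below the filter without any of these. Cd109 had the most negative difference of the members, -1.33 (SE 0.84), from means of 8.45 ± 0.892 and 4.36 ± 4.34, and it was -0.38 without cKO 2 and -2.02 without cKO 3. Vim was at 518 ± 338 and 495 ± 296, a difference of -0.04 (SE 0.64), and Serpina3n at 749 ± 324 and 931 ± 306, a difference of 0.37 (SE 0.46). Mfge8, among the shared genes, differed by -1.04 (SE 0.80), by 0.06 without cKO 2 and by -1.79 without cKO 1. Apoe differed by 0.02 with the smallest SE of the members, 0.30.

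**Figure D4:**
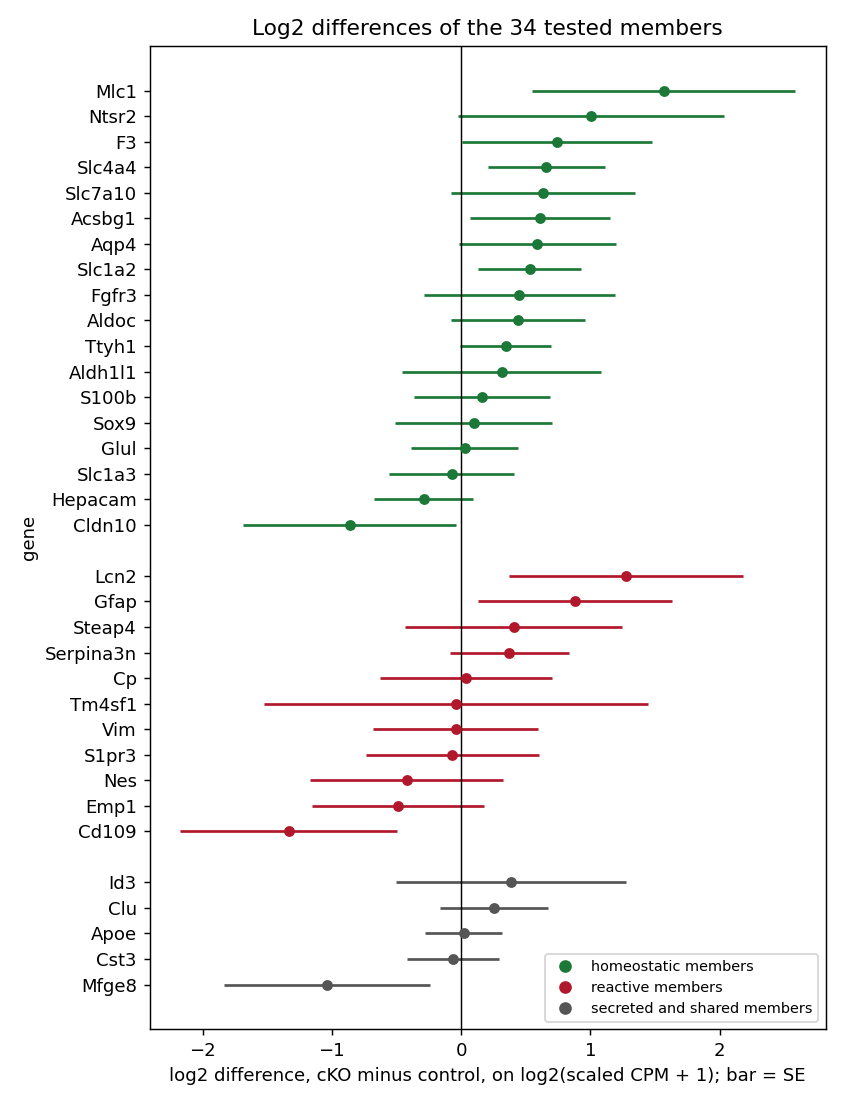
Log2 difference (cKO minus control, on the log2(scaled CPM + 1) scale) of each of the 34 tested members, as a point with a bar of 1 SE to each side, grouped by class. Homeostatic points lie mostly to the right of 0, from -0.86 for Cldn10 to 1.57 for Mlc1, and reactive points on both sides, from -1.33 for Cd109 to 1.27 for Lcn2.

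Other astrocyte genes, listed apart from the members, gave further counts. Of 30 other homeostatic astrocyte genes, all tested, 0 passed the threshold. Their median difference was 0.34, and 23 of them had the higher level in the libraries labelled cKO. Over all tested genes 48.0% were higher, with a median of -0.02, which also stands beside the lists below. Without cKO 2, 17 of 28 tested were higher, with a median of 0.20. Without both libraries numbered 2, 16 of 27 were higher, with a median of 0.17. Atp1b2 differed by 0.67 (SE 0.35), and Slc6a11, an astrocyte GABA transporter gene, by 0.99 (SE 0.51), from means of 11.4 ± 4.46 and 23.4 ± 7.51. Gja1, which encodes the astrocyte gap junction protein connexin 43 and is also strong in fibroblast-lineage cells, was at 97.6, 16.7, 22.5, 74.1, 34.5 and 79.2, highest in control 1 and lowest in control 2. Gpr37l1, an orphan receptor gene of astrocytes and oligodendrocyte precursors, was the 1 of the 30 whose groups did not overlap, beside 2.45% of all tested genes with cKO above, and was singled out after its values were seen. It was at 55.3, 51.3, 55.2, 83.0, 77.4 and 72.1, a log2 difference of 0.51 (SE 0.30) that did not pass the adjusted threshold in limma.

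Of 10 other genes induced in most reactive astrocytes, 5 were higher and 5 lower, with a median of -0.02 and 0 past the threshold. Cd44, the hyaluronan receptor, and Cxcl10, an interferon-induced chemokine gene, were lower in every library labelled cKO than in any labelled control, by log2 differences of -1.36 (SE 0.41) and -1.68 (SE 0.68). Such a separation held for 2.26% of all tested genes. Neither gene passed the adjusted threshold in limma. Cxcl10 had means of 4.66 ± 1.67 and 0.843 ± 0.759 and 0 reads in cKO 2. Hspb1, a small heat shock protein gene, differed by 1.06 (SE 0.94).

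Genes named for the A1 state, a set first drawn from astrocytes exposed to inflammatory signals and rich in interferon-responsive and antigen presentation genes, were higher in 2 of 11 tested, with a median of -0.35 and 0 past the threshold. Psmb8, an immunoproteasome subunit gene, was at 3.04, 0.736, 6.72, 1.39, 0 and 0.884, and H2-T23, a class I gene with close paralogs, at 5.44, 13.5, 7.33, 5.57, 3.64 and 2.36. Amigo2, an adhesion gene, went the other way, at 4.61, 1.47, 4.06, 3.79, 16.9 and 8.76. Both libraries numbered 2 were lowest for 7 of the 12 A1 genes, beside 18.8% of all tested genes. Of the 12, 2 had 0 reads in control 2 and 5 had 0 reads in cKO 2. Of 6 tested genes among 8 others named for the A2 state, 4 were higher, with a median of 0.25 and 0 past the threshold. Clcf1, a cytokine of the gp130 family, had the lowest difference of these, -2.24 (SE 0.97), with control 3 at 43.7 and the other 5 libraries at 6.18 or less. Tgm1, a transglutaminase gene, was at 1.11, 0, 0.889, 3.12, 3.13 and 2.53, so its groups did not overlap, which with cKO above held for 2.45% of all tested genes.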

How the data were processed

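RNA of the sorted cells went through an RNeasy column and the Ovation SoLo library kit (per the labels' protocols). Reads were trimmed, aligned, counted and scaled with tools that, per the submitters' processing notes, include Trimmomatic, HISAT2, featureCounts and edgeR on mm10. Versions, strand setting and counting annotation were not given in the sources used here. The authors deposited a signal per gene and library, CPM-like with a further scaling. Column totals ran from 961962 to 1027958, so the values are not plain CPM as the design had assumed, and the test was kept. Values were whole multiples of 1 step in each library (100% within 0.01 of a whole number), which gave reads and a floor of 3 reads, 0.126 to 0.303 scaled CPM. No source used here says whether PCR duplicates were removed, and the floors cover counting error only.

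The 14796 genes that reached 1 scaled CPM in 3 or more libraries were fitted as log2(value + 1) in R 4.3.3 with limma 3.58.1 (trend on). A difference on this scale is too small for low genes. P-values were Benjamini-Hochberg adjusted over all genes. Whether each library is a separate animal is not labelled, and p-values then measure spread among these samples that may be technical only. EdgeR 4.0.16 and DESeq2 1.42.0 on recovered reads, other pseudocounts (0.1 and 5), filters, scalings, a replicate block and left-out libraries were alternatives. The procedure was also run on counts simulated independently for each library, without differences in cell content between libraries. That run cannot show how large a change would be found in the libraries used here. Gene positions and exon lengths are from GENCODE vM21 on GRCm38, the same assembly as mm10, and promoter windows from RefSeq, found for 30 of 35 members.

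Members, lists and the rule for named genes were chosen with earlier results of these data known. The rule prints all libraries for 12 defining members and the 4 members of each class with the smallest unadjusted p, and up to 3 genes of each other list. Ntsr2, Fgfr3, Nes, S1pr3, Emp1, Gpr37l1 and the genes with 0 reads were named aside from these. They were chosen after their values were seen or by an exception of the rule. Rgs5, Notch3, Col1a1 and Snap25 are outside the rule as well.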

Additional observations from a re-analysis of the deposited data

How the results depend on the processing

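In each of 16 alternatives 0 members were called in limma, edgeR or DESeq2, the smallest adjusted p of any member being 0.732, in limma without cKO 1. At an unadjusted p under 0.05, limma gave Gfap with a replicate block, F3 without control 1, Mfge8 without cKO 1, and Gfap, Mlc1, Aqp4 and Cd109 without cKO 3. Over all genes, 1 gene, Ifit3, was called by DESeq2 and 0 in the other alternatives. The replicate block kept every difference by construction, called 0 genes and gave 307 unadjusted p under 0.05 against 126. Libraries sharing a number had correlated deviations from their group means (r across genes 0.49, 0.30 and 0.03 for numbers 1 to 3), each library correlating best with its own number, but the third pair was under 0.1, so the numbers were not taken as pairs.

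Of 34 tested members, 11 kept their sign in every alternative that tested them. Lcn2 is among these, but was not tested without control 2, cKO 2 or cKO 3. Leaving out 1 library at a time, the median log2 difference ran from 0.06 to 0.67 for homeostatic, -0.61 to 0.58 for reactive and -0.11 to 0.12 for shared genes, and 16 to 25 members were higher in the libraries labelled cKO. The log2 differences that changed sign without a library ranged as follows: Aldh1l1 -0.44 to 0.81, Apoe -0.0859 to 0.21, Clu -0.0175 to 0.60, Cp -0.47 to 0.72, Cst3 -0.37 to 0.13, Emp1 -0.99 to 0.26, F3 -0.0382 to 1.63, Fgfr3 -0.24 to 1.05, Glul -0.24 to 0.30, Hepacam -0.53 to 0.14, Id3 -0.55 to 1.17, Mfge8 -1.79 to 0.0581, Nes -1.10 to 0.39, Ntsr2 -0.0409 to 1.93, S100b -0.26 to 0.65, S1pr3 -0.55 to 0.51, Serpina3n -0.0641 to 0.66, Slc1a3 -0.49 to 0.51, Sox9 -0.34 to 0.53, Steap4 -0.27 to 1.01, Tm4sf1 -1.45 to 1.65, Vim -0.67 to 0.58. The cause was not tested. Tm4sf1 changed sign to 0.0935 with a pseudocount of 5, 0.0516 under quantile normalization, 0.24 in edgeR and 0.19 in DESeq2. Glul was at -0.11 under quantile normalization, -0.0045 in edgeR and -0.0182 in DESeq2, Slc1a3 at 0.14 in edgeR and 0.13 in DESeq2, and Apoe at -0.0009 under quantile normalization. Without both libraries numbered 2, Sox9 was at -0.55, Cldn10 at 0.21, Glul at -0.25, Serpina3n at -0.13, S1pr3 at 0.0272, Tm4sf1 at 0.24, Mfge8 at 0.14 and Cst3 at 0.10.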
